A study of Rattus norvegicus with 9 samples.

Results

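The genes described here are 10 genes of bone morphogenetic protein (BMP) signalling and its ID targets, chosen by symbol: Id1, Id2, Id3, Id4, Smad6, Smad7, Bambi, Bmp2, Bmp4 and Bmpr2. Each symbol had 1 row among the 32623 genes of the deposited table. All 10 were among the 11197 genes kept for testing, which reached 1 FPKM (the deposited level, scaled by gene length and library total) in 3 or more libraries. The libraries, 3 per group, were made from wild-type (WT) rat primary aortic smooth muscle cells. Control cells had DMSO alone. In the PDGF-BB group, platelet-derived growth factor BB, which drives smooth muscle cells to divide, was added for 24 h; the sample labels give its dose as 10 ng/mL and the series design as 20 ng/mL. In the PDGF-BB+PTUPB group the same stimulus followed 2 h of 0.5 µM PTUPB, a compound that inhibits cyclooxygenase-2 and soluble epoxide hydrolase. Cells of every group, at passages 4 to 8, were starved of serum for 12 h beforehand and then held in 2% serum. PTUPB without PDGF-BB was not analysed here. Nothing in the labels tells if replicates were independent cultures or animals, and p-values therefore measure the spread between libraries, which may be technical.

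As background, BMP ligands such as BMP2 and BMP4 bind a complex of type I receptors and a type II receptor, of which BMPR2 is the main one in vascular smooth muscle. The activated receptors phosphorylate SMAD1, SMAD5 and SMAD9, which enter the nucleus with SMAD4 and raise transcription of the ID genes and of the pathway's own inhibitors SMAD6, SMAD7 and BAMBI. ID proteins lack a DNA-binding region and hold basic helix-loop-helix (bHLH) factors of the E protein class away from DNA. In the vessel wall, loss-of-function mutations of BMPR2 are the best known genetic cause of heritable pulmonary arterial hypertension. None of these steps was measured at the protein level here.

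The stretches that lie directly upstream of the annotated starts of Id1, Id2 and Id3 are printed because these ID genes changed with PDGF-BB and again with PTUPB added under all 22 alternative settings tried. They are RefSeq sequences of the rat build GRCr8, 250 bases each, 5′ to 3′ on the gene's own strand: Id1 at chr3:161671314-161671563 on the plus strand, Id2 at chr6:47470996-47471245 on the minus strand and Id3 at chr5:153656041-153656290 on the plus strand. Capitals mark matches, on either strand, to 4 short motifs: GGCGCC (a GC-rich motif that SMAD1 and SMAD5 bind with SMAD4), GTCT (the core of the SMAD binding element, AGAC on the other strand), and the E boxes CACGTG and CAGCTG.
Id1: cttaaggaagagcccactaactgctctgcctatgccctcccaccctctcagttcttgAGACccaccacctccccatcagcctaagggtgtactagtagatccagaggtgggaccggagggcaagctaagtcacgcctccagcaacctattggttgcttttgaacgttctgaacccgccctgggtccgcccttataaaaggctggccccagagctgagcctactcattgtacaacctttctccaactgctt
Id2: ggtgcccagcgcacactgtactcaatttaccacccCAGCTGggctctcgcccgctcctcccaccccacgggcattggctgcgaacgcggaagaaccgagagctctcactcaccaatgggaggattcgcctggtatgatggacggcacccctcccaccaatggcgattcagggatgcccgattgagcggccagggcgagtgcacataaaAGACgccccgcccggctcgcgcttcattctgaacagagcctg
Id3: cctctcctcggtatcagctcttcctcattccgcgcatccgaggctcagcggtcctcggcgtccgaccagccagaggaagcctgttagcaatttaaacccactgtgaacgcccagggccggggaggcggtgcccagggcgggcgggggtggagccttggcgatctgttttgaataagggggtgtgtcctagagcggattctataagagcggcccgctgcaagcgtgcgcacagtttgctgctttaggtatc

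Of the 10 genes, 8 were in the promoter table, matched by symbol; Smad6 and Bmp2 were not. GGCGCC was found in the 250-base windows of Smad7 (2 matches) and Bambi (1 match), and in 9.07% of the 27457 windows of all genes. GTCT was found in 6 of the 8 (Id1, Id2, Id4, Smad7, Bambi and Bmp4) and in 83.7% of all windows. CAGCTG was found in Id2 and Bmp4 (12.0% of all windows) and CACGTG in Bmp4 (5.73%). Id3, the most abundant ID gene, and Bmpr2 held none of these letters in this window. The windows printed above hold no overlapping matches, and a match is a description of letters, not evidence of binding.

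Counts summed to between 12729187 and 16911050 per library, so that 3 counts stand for 0.177 to 0.236 CPM (counts scaled to a common library size). Replicates of a group differed by more than sampling noise in all 9 pairs (chi-square per degree of freedom 6.08 to 38.4). Of 8 smooth muscle markers 6 passed the filter, with highest values of 1845 FPKM for Tagln, 779.9 for Acta2, 90.6 for Cnn1, 43.3 for Smtn, 19.6 for Lmod1 and 6.49 for Myh11. Desmin (Des) reached 0.180 FPKM at most and the coactivator gene Myocd 1.00. All 8 endothelial markers in the file stayed under 1 FPKM, and 5 of them (Cdh5, Cldn5, Emcn, Kdr and Tie1) were listed at 0, although a listed 0 can be a failed estimate in this file, where fibronectin (Fn1) is also at 0. Summed FPKM of the 7 adventitial fibroblast markers, most of it from Scara5, Pdgfra and Dpep1, moved with the groups. It was 649 to 745 in Control, 298 to 358 with PDGF-BB and 522 to 651 with PTUPB added, with 2 of the 7 (Dpt and Cd34) under 1 FPKM throughout. The part of that cell type in the results below was not tested, and in bulk RNA fewer cells of a type and less RNA per cell cannot be told apart.

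Control replicate 2 and PDGF-BB replicate 3 stood apart from their groups. In both, longer genes read lower than in the other libraries of the group (Spearman correlations across genes of deviation with exonic length of -0.39 and -0.38; genes are not independent replicates). Relative to the mean of the other 2 Control libraries, Control replicate 2 read higher for Id2 (0.74 on the log2 CPM scale) and Bmp2 (0.60) and lower for Bmp4 (-0.65) and Bmpr2 (-0.48). PDGF-BB replicate 3 read lower for Bmpr2 (-0.73). The length correlation ran the other way in Control replicate 1 and PDGF-BB replicate 2 (0.35 in each), and PDGF-BB replicate 2 read higher for Bmpr2 (0.68). Each deviation is taken from the other libraries of the group, so these values are not independent of one another. Results are also given without Control replicate 2 and PDGF-BB replicate 3.

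With PDGF-BB, 9 of the 10 genes were lower than in Control. All but Bmp2 fell (Benjamini-Hochberg adjusted p under 0.05 over all tested genes in the quasi-likelihood fit of edgeR) and 0 rose, whereas 17.3% of all tested genes rose, 15.8% of all tested genes fell and 33.2% changed in either direction. The median log2 change of the 10 genes was -0.77, beside -0.02 over all tested genes. In these 9 genes the CPM of the groups did not overlap, with PDGF-BB lower, as in 22.0% of all genes (22.6% in the other direction). Over all genes the split was 1942 higher and 1772 lower with the TMM scaling of edgeR, and 2410 higher and 1350 lower when libraries were scaled by their totals alone. All 9 genes were lower under either scaling, and 9 of the 10 fell when both libraries that stood apart were left out.

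With PTUPB added, 7 of the 10 genes were higher than with PDGF-BB alone. Id1, Id2, Id3, Id4, Smad7, Bambi and Bmpr2 rose and 0 fell, beside 8.28% of all tested genes that rose, 10.0% that fell and 18.3% that changed in either direction. The median log2 change of the 10 was 0.61, against 0.01 over all genes. CPM did not overlap for 9 of the 10, all with PDGF-BB+PTUPB higher, as for 20.0% of all genes (20.7% in the other direction). Scaling by totals alone changed the split over all genes from 927 higher and 1121 lower to 759 and 1414, and left 6 of the 10 called, without Bmpr2. Leaving out both libraries that stood apart gave 9 called, with Smad6 and Bmp4 added, whereas leaving out PDGF-BB+PTUPB replicate 3 gave 4. Over all tested genes, 1331 were called without PDGF-BB+PTUPB replicate 3, beside 2048 with all 9 libraries. Calls over all genes thus moved with the libraries kept as well, and these counts of the 10 are descriptions.

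Against Control, cells given PDGF-BB and PTUPB differed in 1 of the 10 genes. Id2 stayed lower in the edgeR fit, beside 0.313% of all tested genes lower, 1.89% higher and 2.21% changed in either direction. CPM did not overlap for 6 of the 10 (Id2, Id3, Id4, Smad6, Smad7 and Bmp2), all with PDGF-BB+PTUPB lower, as for 9.38% of all genes (12.1% in the other direction). The median log2 difference of the 10 was -0.25, beside -0.01 over all genes. The count of 1 depended on the libraries and the tool. It was 4 (Id2, Id4, Bmp2 and Bmpr2) without both libraries that stood apart, 3 (Id2, Id4 and Bmp2) with DESeq2, and 2 (Id2 and Id4) without Control replicate 3 or PDGF-BB replicate 3. It was 0 without PDGF-BB+PTUPB replicate 2 or 3. Over all tested genes, 247 were called in the edgeR fit to all 9 libraries, 1345 without both libraries that stood apart and 441 with DESeq2. The higher counts of the 10 in those 2 settings thus came with more calls over all genes. The 3 comparisons share libraries in pairs, so they are not independent of one another.

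**Figure D1:**
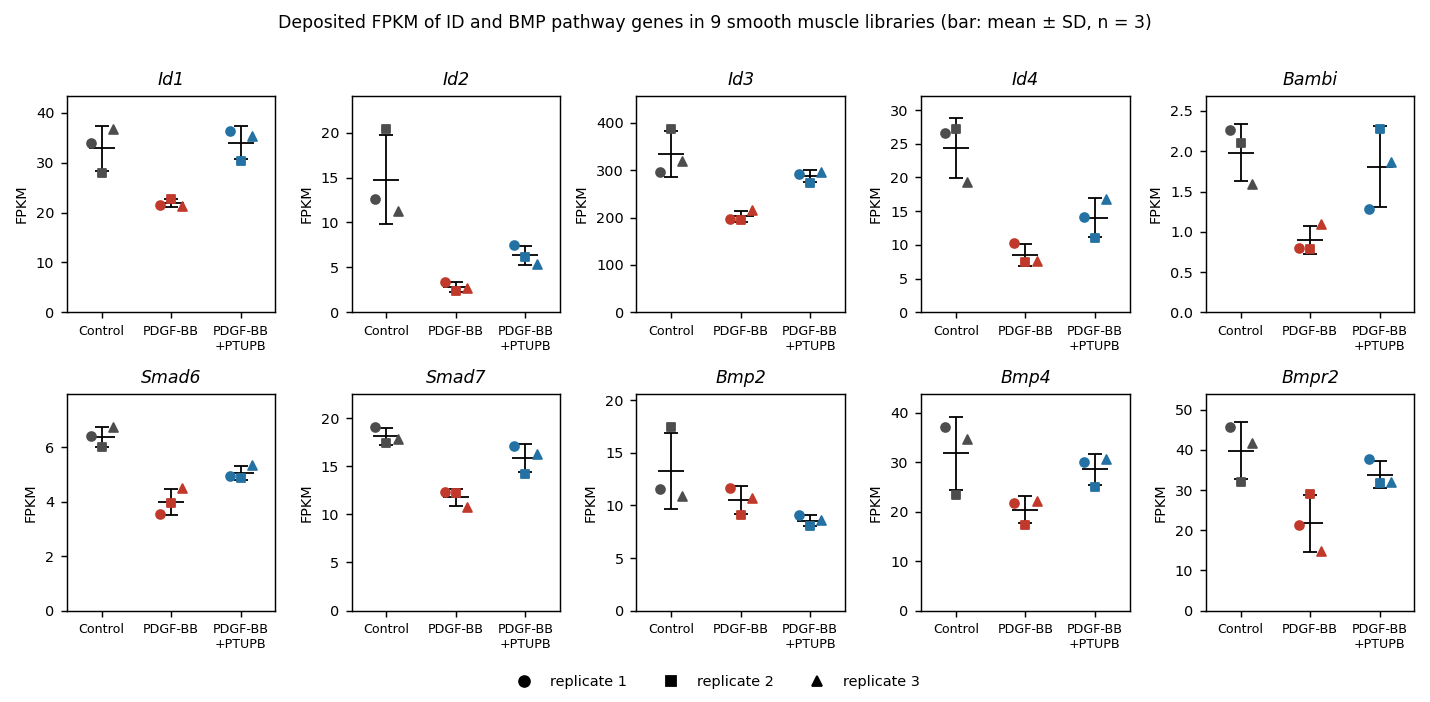
Deposited FPKM (y axis, from 0) of the 10 genes in each library, by group; symbols mark the replicate and bars the mean ± SD of 3 libraries. Every gene except Bmp2 has all 3 PDGF-BB libraries below all 3 Control libraries, and Bmp2 is lowest in the PDGF-BB+PTUPB group.

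Among the ID genes, Id3 was by far the most abundant per length and Id2 the least in every group. Id3 (ENSRNOG00000026124) was at 296, 387 and 319 FPKM in Control replicates 1 to 3, at 197, 195 and 215 FPKM in PDGF-BB and at 292, 273 and 297 FPKM in PDGF-BB+PTUPB. The PDGF-BB libraries lay below all others, and the PDGF-BB+PTUPB libraries reached the lower edge of the Control range. The log2 change with PDGF-BB was -0.79 ± 0.10 (SE; edgeR adjusted p = 2.17e-04), the change of PDGF-BB+PTUPB from PDGF-BB was 0.55 ± 0.10 (edgeR adjusted p = 0.00459), and from Control -0.24 ± 0.10 (edgeR adjusted p = 0.302). Id3 made up 82.1% ± 1.80 (SD, n = 3) of the summed FPKM of the 4 ID genes in Control, 85.9% ± 1.22 with PDGF-BB and 84.1% ± 0.920 with PTUPB added. The sum itself was 369 to 463 FPKM in Control, 227 to 247 with PDGF-BB and 321 to 355 with PTUPB added.

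Id1 (ENSRNOG00000021750), the ID gene most used as a readout of BMP receptor activity, was back at the Control level with PTUPB. It read 33.9, 27.8 and 36.8 FPKM in Control, 21.6, 22.8 and 21.3 FPKM in PDGF-BB and 36.3, 30.3 and 35.4 FPKM in PDGF-BB+PTUPB. The PDGF-BB libraries were the 3 lowest, and the other groups covered the same range. The log2 changes were -0.66 ± 0.12 with PDGF-BB (edgeR adjusted p = 0.00238) and 0.68 ± 0.12 with PTUPB added (edgeR adjusted p = 0.00490). Against Control the difference was 0.02 ± 0.12 (edgeR adjusted p = 0.957), with a 95% interval of -0.24 to 0.28.

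The largest fall among the 10 genes was in Id2 (ENSRNOG00000007237). It was covered by 262, 515 and 259 counts in Control, 65, 45 and 52 counts in PDGF-BB and 154, 154 and 109 counts in PDGF-BB+PTUPB, or 12.65, 20.4 and 11.3 FPKM, 3.43, 2.33 and 2.68 FPKM, and 7.47, 6.17 and 5.41 FPKM. The 3 groups formed separate bands with PDGF-BB+PTUPB between the other two. PDGF-BB brought Id2 5.50-fold lower (log2 change -2.46 ± 0.25, edgeR adjusted p = 7.60e-05), and -2.17 without Control replicate 2, where it read highest. PTUPB raised it 2.32-fold from there (1.22 ± 0.25, edgeR adjusted p = 0.00972). It remained 2.37-fold lower than in Control (-1.24 ± 0.23, edgeR adjusted p = 0.0206), a call that was lost without PDGF-BB+PTUPB replicate 2 (edgeR adjusted p = 0.104) or replicate 3 (0.124), in a range of 4.24e-05 to 0.124 over all alternatives.

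Id4 (ENSRNOG00000016099) followed a similar order. Its values were 26.6, 27.2 and 19.3 FPKM in Control, 10.3, 7.45 and 7.66 FPKM in PDGF-BB and 14.2, 11.1 and 16.87 FPKM in PDGF-BB+PTUPB. No 2 groups overlapped. The log2 change was -1.59 ± 0.19 with PDGF-BB (edgeR adjusted p = 2.21e-04) and 0.77 ± 0.20 with PTUPB added (edgeR adjusted p = 0.0229). The latter call was lost without PDGF-BB replicate 2 or 3 or PDGF-BB+PTUPB replicate 1 or 3 (edgeR adjusted p of 0.0604 to 0.0873). Against Control, Id4 was at -0.82 ± 0.19 (edgeR adjusted p = 0.0537). DESeq2 gave an adjusted p of 0.00217 for the same difference, and the range over all alternatives was 0.00217 to 0.223.

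**Figure D2:**
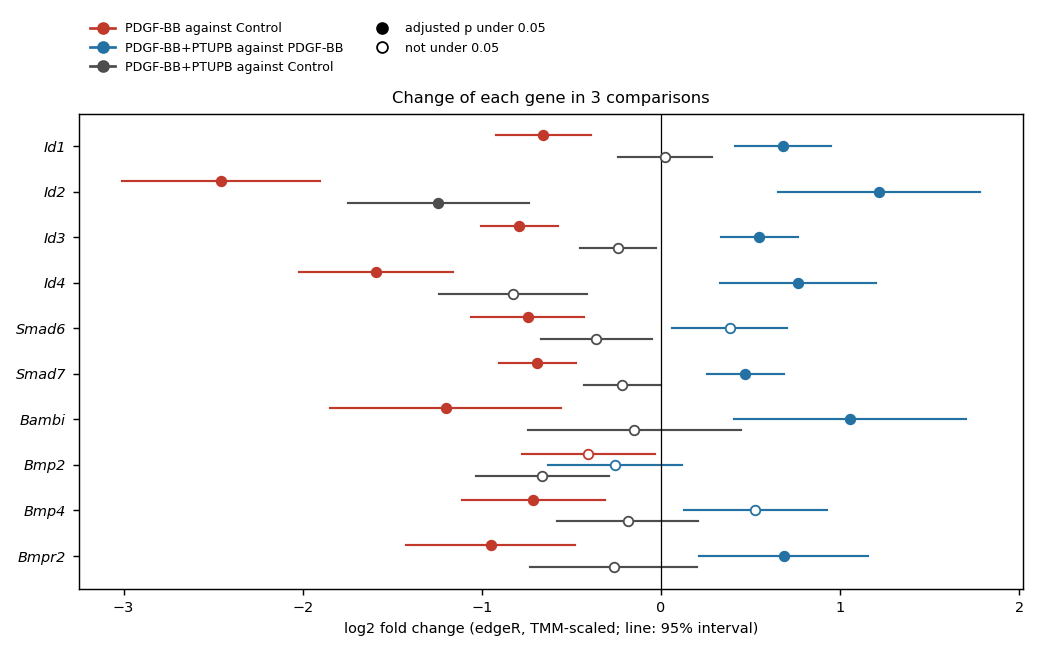
Log2 fold change (x axis) of each of the 10 genes in the 3 comparisons, from edgeR, with 95% intervals; filled points have an adjusted p under 0.05. Red points (PDGF-BB against Control) lie left of 0 for all 10 genes, and blue points (PDGF-BB+PTUPB against PDGF-BB) lie right of 0 for all but Bmp2.

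Ratios between the ID genes were compared within libraries, and none of their differences could be called. Within libraries, the ratio of Id1 to Id2 FPKM was 1.36 to 3.27 in Control, 6.29 to 9.79 with PDGF-BB and 4.86 to 6.55 with PTUPB added. Both PDGF-BB-treated groups lay above Control without overlap and overlapped each other. Id3 to Id2 went from 23.6 ± 4.70 to 73.8 ± 14.2 and 46.1 ± 8.03 (mean ± SD, n = 3), with no overlap between any 2 groups. Id1 to Id4 ran from 1.02 to 1.91 in Control, from 2.09 to 3.06 in PDGF-BB and from 2.10 to 2.73 in PDGF-BB+PTUPB. Id3 to Id1, in contrast, overlapped between all groups (8.66 to 13.9, 8.53 to 10.1, and 8.06 to 9.02). An exact two-sided permutation test of 3 against 3 libraries cannot go below p = 0.1, which each ratio without overlap reached, and the adjusted value over the 24 ratio tests made was 0.218. None of the ratio differences therefore passes a threshold of 0.05.

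**Figure D3:**
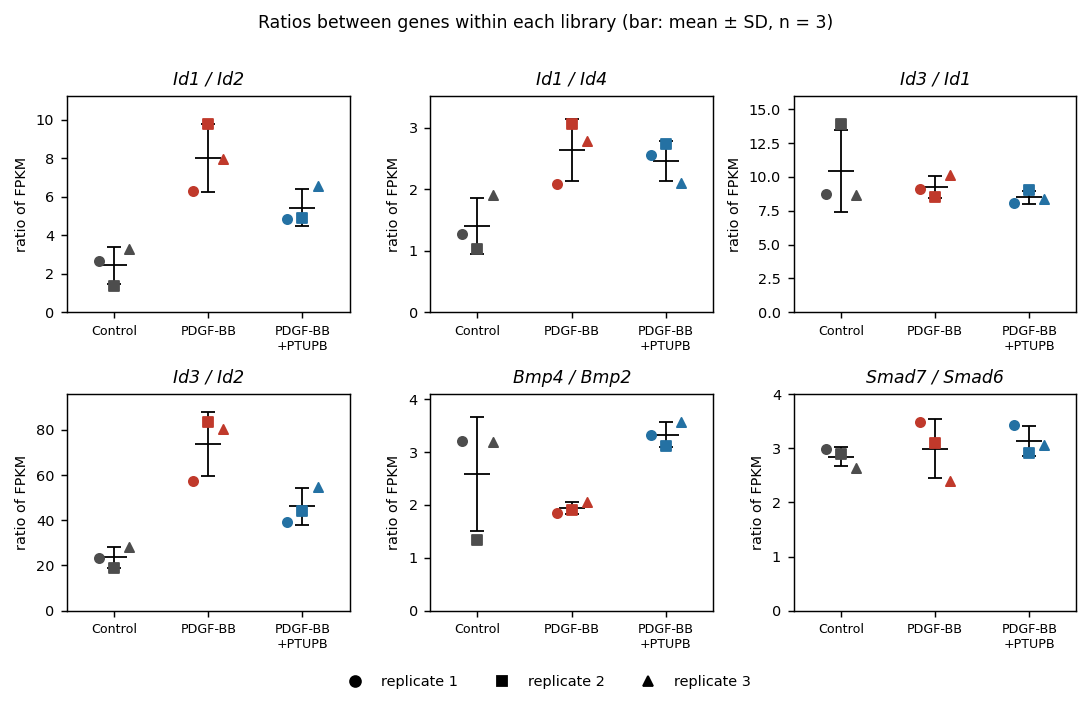
Ratios of FPKM between pairs of genes within each library (y axis, from 0), by group; symbols mark the replicate and bars the mean ± SD of 3 libraries. Id1 / Id2 and Id3 / Id2 are lowest in the 3 Control libraries, Bmp4 / Bmp2 is higher in PDGF-BB+PTUPB than in PDGF-BB, and Smad7 / Smad6 and Id3 / Id1 overlap between groups.

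Of the intracellular and membrane inhibitors of the pathway, Smad7, Smad6 and Bambi fell with PDGF-BB, and Smad7 and Bambi rose with PTUPB added. Smad7 (ENSRNOG00000018359), which blocks both BMP and TGF-beta receptors, was at 19.1, 17.4 and 17.9 FPKM in Control, 12.4, 12.2 and 10.8 FPKM in PDGF-BB and 17.1, 14.2 and 16.3 FPKM in PDGF-BB+PTUPB. The 3 groups did not overlap. It fell by 0.69 ± 0.10 on the log2 scale with PDGF-BB (edgeR adjusted p = 4.95e-04) and rose by 0.47 ± 0.10 with PTUPB added (edgeR adjusted p = 0.00891). From Control the difference was -0.22 ± 0.10 (edgeR adjusted p = 0.354).

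Smad6 (ENSRNOG00000009173), the inhibitor that acts mainly on the BMP branch, was less abundant. It read 6.40, 6.0 and 6.75 FPKM in Control, 3.55, 3.94 and 4.49 FPKM in PDGF-BB and 4.96, 4.88 and 5.34 FPKM in PDGF-BB+PTUPB, again in 3 separate bands. The change with PDGF-BB was -0.74 ± 0.14 (edgeR adjusted p = 0.00304). The difference of PDGF-BB+PTUPB from PDGF-BB, 0.38 ± 0.14, did not pass (edgeR adjusted p = 0.0946). The ratio of Smad7 to Smad6 was 2.84 ± 0.177 in Control, 2.997 ± 0.551 with PDGF-BB and 3.14 ± 0.273 with PTUPB added, and overlapped between groups.

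Bambi (ENSRNOG00000016066), a decoy receptor without a kinase domain, was the lowest of the 10 genes and the least precisely measured. Its counts were 46, 52 and 36 in Control, 15, 15 and 21 in PDGF-BB and 26, 56 and 37 in PDGF-BB+PTUPB, which is 1.59 to 2.26 FPKM, 0.790 to 1.10 FPKM and 1.28 to 2.28 FPKM. The PDGF-BB libraries were below all others. Bambi passed the filter only through the Control and PDGF-BB+PTUPB groups, where it is high, so its fall and its rise were favoured by the filter. It is counted among the 9 genes called lower with PDGF-BB and the 7 called higher with PTUPB added. PDGF-BB changed Bambi by -1.20 ± 0.29 (edgeR adjusted p = 0.00973) and PTUPB added changed it by 1.05 ± 0.29 (edgeR adjusted p = 0.0317) on the log2 scale. The second call was lost in 5 of 21 alternatives. Among them were the fits without PDGF-BB replicate 1 or 2 or PDGF-BB+PTUPB replicate 2 or 3 (edgeR adjusted p of 0.0789 to 0.124). Against Control the difference of PDGF-BB+PTUPB was -0.15 ± 0.27 (edgeR adjusted p = 0.860), with a 95% interval of -0.74 to 0.44.

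Of the ligand genes, Bmp4 fell with PDGF-BB, and Bmp2 was not called in any comparison when edgeR was fitted to all 9 libraries. Bmp4 (ENSRNOG00000009694) was at 37.2, 23.5 and 34.8 FPKM in Control, 21.7, 17.3 and 22.2 FPKM in PDGF-BB and 30.1, 24.9 and 30.6 FPKM in PDGF-BB+PTUPB. The lowest Control library, replicate 2, was close to the highest PDGF-BB library. The change of Bmp4 with PDGF-BB was -0.71 ± 0.18 (edgeR adjusted p = 0.0122), a call lost without PDGF-BB replicate 2 (edgeR adjusted p = 0.0501) in a range of 3.55e-04 to 0.0501 over all alternatives. The difference between PDGF-BB+PTUPB and PDGF-BB was 0.53 ± 0.18 and did not pass (edgeR adjusted p = 0.0677), but it did without Control replicate 2 (edgeR adjusted p = 0.0157), with DESeq2 (adjusted p = 0.0278) and with the 2 groups alone in the edgeR fit (adjusted p = 0.0266), in a range of 0.00625 to 0.197.

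Bmp2 (ENSRNOG00000021276) read 11.6, 17.5 and 10.9 FPKM in Control, 11.7, 9.11 and 10.8 FPKM in PDGF-BB and 9.08, 8.01 and 8.59 FPKM in PDGF-BB+PTUPB. Control replicate 2 was the highest library, and the 3 PDGF-BB+PTUPB libraries were the 3 lowest by FPKM, although not by TMM-scaled CPM. None of the 3 differences passed: -0.41 ± 0.17 for PDGF-BB against Control (edgeR adjusted p = 0.0866), -0.26 ± 0.17 for PDGF-BB+PTUPB against PDGF-BB (edgeR adjusted p = 0.331) and -0.66 ± 0.17 for PDGF-BB+PTUPB against Control (edgeR adjusted p = 0.0880). The first passed without Control replicate 3 (edgeR adjusted p = 0.0482) and shrank to -0.17 without Control replicate 2. The last passed with DESeq2 (adjusted p = 0.0100) and without both libraries that stood apart (-0.43, edgeR adjusted p = 0.0352). Per library, Bmp4 was 1.94 ± 0.110 times as abundant as Bmp2 in PDGF-BB and 3.33 ± 0.228 times in PDGF-BB+PTUPB, without overlap (exact two-sided permutation p = 0.1, the smallest possible), whereas in Control the ratio ran from 1.34 to 3.21.

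Bmpr2 (ENSRNOG00000022196), the type II receptor gene, was at 45.7, 32.1 and 41.7 FPKM in Control, 21.3, 29.0 and 14.9 FPKM in PDGF-BB and 37.8, 31.8 and 32.0 FPKM in PDGF-BB+PTUPB. The PDGF-BB libraries were the 3 lowest and ranged from 14.9 to 29.0. Its lowest values in Control and in PDGF-BB were in the libraries in which longer genes read low, and its exonic length in the file is 3869 bases. Smad7, the longest of the 10 at 4295 bases, deviated by -0.12 and -0.18 (log2 CPM) in those libraries and Bmp2, at 3194 bases, by 0.60 and 0.07, and the part of length in the Bmpr2 values was not tested. It fell with PDGF-BB (-0.95 ± 0.21, edgeR adjusted p = 0.00678; -0.89 without both of those libraries). The rise with PTUPB (0.69 ± 0.21, edgeR adjusted p = 0.0487) was near the threshold and was lost in 15 of 22 alternatives, limma on log2(FPKM + 1) (adjusted p = 0.0529) and totals-only scaling (edgeR adjusted p = 0.0607) among them. Without PDGF-BB replicate 3 it was 0.48 (edgeR adjusted p = 0.0906), and without PDGF-BB+PTUPB replicate 1 the adjusted p was 0.157, the highest of a range from 0.0109.

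Medians of the other pathway lists lay closer to 0 than those of the 10 genes. The 10 genes and the lists were chosen with earlier results of these data known, so this order may follow from the choice. In the receptor list, the type I receptor genes Bmpr1a (-0.47 ± 0.10, edgeR adjusted p = 0.00603) and Acvr1 (-0.27 ± 0.08), the coreceptor gene Eng (endoglin, -0.28 ± 0.08) and Neo1 (-0.24 ± 0.08) fell with PDGF-BB. They were 4 of 10 tested receptor and coreceptor genes, with 0 higher and a median of -0.14, beside 15.8% of all tested genes lower and 17.3% higher. With PTUPB added, 0 of the 10 were called by edgeR, beside 8.28% of all tested genes that rose and 10.0% that fell. Bmpr1a, at 33.4, 31.5 and 25.2 FPKM in PDGF-BB and 37.0, 36.1 and 35.3 FPKM in PDGF-BB+PTUPB, had a change of 0.31 ± 0.10 (edgeR adjusted p = 0.0640). Among the receptor-regulated and common SMAD genes, which the naming rule did not pick and which were chosen after their values were seen, Smad1 (-0.18 ± 0.07, edgeR adjusted p = 0.0694), Smad5 (-0.06 ± 0.12) and Smad4 (-0.06 ± 0.08) did not pass with PDGF-BB, and Smad9 stayed under the filter (0.0300 FPKM at most).

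Of 21 tested SMAD genes and intracellular regulators, 2 rose and 3 fell with PDGF-BB, beside 17.3% and 15.8% of all tested genes. The TGF-beta branch gene Smad3 fell (-0.56 ± 0.10, edgeR adjusted p = 0.00231), as did Tob2 (-0.36 ± 0.10), an antiproliferative gene, and the rises were in Stub1 (0.34 ± 0.07), an E3 ubiquitin ligase, and Fkbp1a (0.32 ± 0.09), whose protein binds type I receptors. With PTUPB added, Smad3 rose (0.34 ± 0.10, edgeR adjusted p = 0.0419) and Stub1 fell (-0.24 ± 0.07, edgeR adjusted p = 0.0488). The remaining 19 of the list were not called, beside 8.28% of all tested genes that rose with PTUPB added and 10.0% that fell.

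Of 7 other tested ligands, Inhbb, an activin subunit gene, fell with PDGF-BB (-0.45 ± 0.11, edgeR adjusted p = 0.0103), and 0 rose (15.8% and 17.3% of all tested genes). Inhbb (0.51 ± 0.11, edgeR adjusted p = 0.0116) and Bmp6 (0.59 ± 0.10, edgeR adjusted p = 0.00320) rose with PTUPB added and 0 fell (8.28% and 10.0% of all tested genes). Per length, Bmp6 was the most abundant tested ligand gene of the list: 78.5, 66.5 and 73.1 FPKM in Control, 60.1, 66.0 and 63.8 FPKM in PDGF-BB and 82.8, 99.0 and 96.2 FPKM in PDGF-BB+PTUPB. All 3 PDGF-BB+PTUPB libraries were above all 6 others, but the difference from Control did not pass (0.32 ± 0.10, edgeR adjusted p = 0.145). The other 13 ligand genes of the list stayed under the filter, 6 of them listed at 0.

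Of 18 tested secreted antagonists and modulators, 8 fell and 1 rose with PDGF-BB (15.8% and 17.3% of all tested genes), with a median of -0.38. The 8 include Nog, which at 0.43 to 0.76 FPKM in PDGF-BB passed the filter only through Control and PDGF-BB+PTUPB, where it is high. The fall of Nog was therefore favoured by the filter. Nbl1 (DAN), a secreted BMP antagonist, was at 244, 375 and 258 FPKM in Control, 146, 127 and 151 FPKM in PDGF-BB and 230, 222 and 211 FPKM in PDGF-BB+PTUPB. It fell with PDGF-BB (-1.12 ± 0.14, edgeR adjusted p = 3.04e-04) and rose with PTUPB (0.69 ± 0.14, edgeR adjusted p = 0.00950). Twsg1, which modulates chordin, changed by -0.68 ± 0.08 and 0.35 ± 0.08, and Bmp1, a protease that cleaves chordin, by -0.42 ± 0.07 and 0.29 ± 0.07, all 4 called. Crim1, a membrane protein that binds BMPs, fell with PDGF-BB (-0.93 ± 0.17). Matrix Gla protein (Mgp), an inhibitor of BMP2 and of arterial calcification, fell (-0.71 ± 0.14) and rose with PTUPB (0.52 ± 0.14, edgeR adjusted p = 0.0281), from 4034.5 ± 701 to 2587 ± 397 and 3591 ± 91.9 FPKM. Gremlin 1 (Grem1), at 1953 ± 307 FPKM in Control, did not pass in any comparison. With PTUPB added, 4 of the 18 rose and 0 fell (8.28% and 10.0% of all tested genes).

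**Figure D4:**
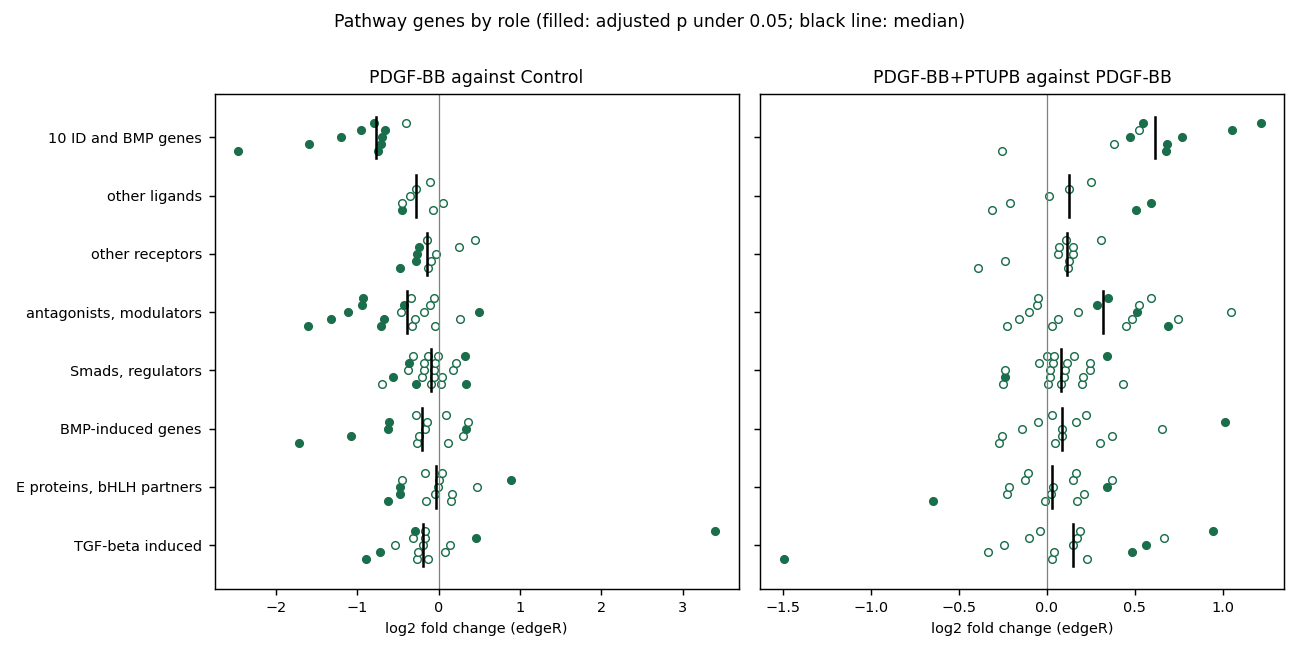
Log2 fold change (x axis) of the 10 ID and BMP genes and of the tested genes of 7 pathway lists, for PDGF-BB against Control (left) and PDGF-BB+PTUPB against PDGF-BB (right); filled points have an edgeR adjusted p under 0.05 and black lines are medians. The medians of the 10 genes, -0.77 and 0.61, lie farther from 0 than those of the 7 lists. The 10 genes and the lists were chosen with earlier results of these data known, so this order may follow from the choice.

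Of other genes that BMPs induce, Atoh8, a bHLH factor gene, was highest in Control, lowest with PDGF-BB and between them with PTUPB added. It was at 12.1, 12.5 and 11.7 FPKM in Control, 4.00, 3.22 and 4.31 FPKM in PDGF-BB and 8.28, 7.19 and 7.16 FPKM in PDGF-BB+PTUPB. The 3 groups were separate, and all 3 differences passed: -1.72 ± 0.12 (edgeR adjusted p = 1.43e-05), 1.01 ± 0.13 (edgeR adjusted p = 0.00108) and -0.71 ± 0.12 against Control (edgeR adjusted p = 0.0125). With PDGF-BB 4 of 14 tested genes of the list fell and 1 rose (15.8% and 17.3% of all tested genes). Those that fell included the T-box gene Tbx3 (-0.61 ± 0.13) and alkaline phosphatase Alpl (-1.08 ± 0.30), as well as Hes1 (-0.62 ± 0.18). The gene that rose was the osteogenic factor gene Runx2 (0.33 ± 0.08). Alpl, at 0.41 to 0.94 FPKM in PDGF-BB, passed the filter only through Control and PDGF-BB+PTUPB, where it is high. Its fall was therefore favoured by the filter. Atoh8 was the 1 gene of the list called with PTUPB added, beside 8.28% of all tested genes that rose and 10.0% that fell. Of the list, 12 genes stayed under the filter.

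E protein genes, other bHLH partners of ID proteins and ETS factor genes were measured too, as a single list. The E protein genes Tcf3, Tcf4 and Tcf12, named here after their values were seen, did not pass with PDGF-BB (0.16 ± 0.08, 0.04 ± 0.15 and -0.15 ± 0.15) or with PTUPB added (-0.12 ± 0.08, -0.11 ± 0.15 and 0.03 ± 0.15). Twist1, a bHLH factor gene that pairs with E proteins, moved opposite to the ID genes. It read 12.5, 20.2 and 15.7 FPKM in Control, 29.9, 32.6 and 31.8 FPKM in PDGF-BB and 16.3, 20.8 and 21.3 FPKM in PDGF-BB+PTUPB, and PDGF-BB libraries were above all others. It rose by 0.89 ± 0.15 (edgeR adjusted p = 0.00174) and changed by -0.65 ± 0.15 with PTUPB added (edgeR adjusted p = 0.0171). Its relative Twist2 fell with PDGF-BB (-0.48 ± 0.15, edgeR adjusted p = 0.0375), as did Hes1, listed here too, and the ETS factor gene Elk4 (-0.47 ± 0.09). In all, 1 of 14 tested genes of the list, ETS factor genes included, rose and 3 fell with PDGF-BB (17.3% and 15.8% of all tested genes). With PTUPB added 1 rose (Elk4, 0.34 ± 0.09) and 1 fell (8.28% and 10.0% of all tested genes).

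Of 15 tested genes that TGF-beta induces, 2 rose and 3 fell with PDGF-BB (17.3% and 15.8% of all tested genes) and 10 were not called. With PTUPB added 3 rose and 1 fell (8.28% and 10.0% of all tested genes). The integrin gene Itga11 (-0.89 ± 0.19 and 0.95 ± 0.19) and Ltbp2 (-0.72 ± 0.12 and 0.56 ± 0.12), of the latent TGF-beta binding proteins, fell with PDGF-BB and rose with PTUPB added. Tgfbi had changes of 3.39 ± 0.46 and -1.49 ± 0.39, but it passed the filter only through the PDGF-BB group, where it is high, so these changes were favoured by the filter. It read 0.05 to 0.31 FPKM in Control, 1.47 to 2.25 with PDGF-BB and 0.510 to 0.780 with PTUPB added. Connective tissue growth factor (Ccn2) rose with PTUPB added (0.48 ± 0.13, edgeR adjusted p = 0.0252).

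The genes whose log2 CPM ran most like each ID gene over the 9 libraries differed from gene to gene. For Id1 they were Slc4a3, Atp13a2, Il1rl2, Ccdc65 and Bace1 (Pearson r of 0.956 to 0.962), and for Id2 they were Plpp3, Lrp11, Sfrp2, Mmp14 and Cxcl6 (0.984 to 0.987). For Id3 they were Tpp1, Tcn2, P2rx4, Idua and App (0.986 to 0.993), and for Id4 they were Man1c1, Abcc4, Clec3b, Tbx18 and Pcdhgb7 (0.964 to 0.976). Pcdhgb7 averaged 1.17 FPKM in untreated cells but less than 1 FPKM after the growth factor, either alone (0.503) or with PTUPB (0.76). The filter may therefore have favoured its fall and its correlation with Id4. No list held another of the 10 genes, although Id2 ran with Id3 and with Id4 at 0.95, while Id1 and Bmp2 had -0.09. These values are descriptions over 9 libraries in 3 groups, so that differences between the groups enter each of them.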

How the data were processed

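Poly(A) RNA was sequenced paired-end in 9 libraries, per the labels' protocols. The submitters' processing notes name cutadapt 1.9.1 (trimming), HISAT2 2.0.1 (alignment) and HTSeq 0.6.1 (counting). They also name the mouse build mm10, although all 32623 identifiers are rat Ensembl identifiers, so no coordinates of that build are given. Strand in counting is not given in the sources used here. The authors deposited expected counts (not whole in 978 genes) and FPKM; these FPKM equal counts per length and library total within 0.006 for 100% of values.

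Counts were rounded and fitted with edgeR 4.0.16 in R 4.3.3 (TMM scaling, quasi-likelihood F test, group only, all 9 libraries, two-sided, 6 residual degrees of freedom, Benjamini-Hochberg adjusted p under 0.05). Fold changes are thus TMM-scaled, whereas FPKM follow library totals. Alternatives used limma 3.58.1, DESeq2 1.42.0, other scalings and filters, a replicate block and omitted libraries. Scripts were tested on simulated data. The 10 genes, the lists and the tests were chosen with earlier results of these data known. Per list and comparison, up to 4 called genes of smallest p are named, or the 2 of highest FPKM where 0 were called (some are left out here), and per ID gene the 5 best-correlated named genes. Genes outside this rule were chosen after their values were seen, as was Mgp for PDGF-BB against Control.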

Additional observations from a re-analysis of the deposited data

How the results depend on the processing

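Of 657 values of the 10 genes under 22 alternatives, 615 kept their side of the threshold, 27 lost the call, 15 gained it and 0 reversed a call. Differences that were not called could change sign within the 615, as Id1 did for PDGF-BB+PTUPB against Control (-0.10 to 0.11 on the log2 scale). For PDGF-BB against Control, leaving out 1 library gave 2770 to 3902 genes and 8 to 10 of the 10. For PDGF-BB+PTUPB against PDGF-BB it gave 1002 to 2463 genes (1002, 1109 and 1331 without PDGF-BB+PTUPB replicates 1, 2 and 3) and 4 to 8 of the 10. For PDGF-BB+PTUPB against Control it gave 93 to 340 genes and 0 to 2 of the 10. In that comparison DESeq2 called 441 genes and 3 of the 10 (Id2, Id4 and Bmp2), the fit with no filter 2 of the 10 (Id2 and Id4), and the fit without Control replicate 2 and PDGF-BB replicate 3 called 1345 genes and 4 of the 10 (Id2, Id4, Bmp2 and Bmpr2), against 247 genes and 1. The cause of these shifts was not tested. With limma on log2(FPKM + 1), the split was 2427 higher and 1283 lower with PDGF-BB, and 728 and 1419 with PTUPB added.

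Replicate numbers showed no clear pairing of the libraries: of 9 same-numbered pairs, 1 had a correlation of deviations over 0.1 (range -0.24 to 0.18), and 1 of 9 libraries correlated best with its own number. With 3 libraries per group, this check cannot tell if same-numbered libraries shared a culture or day. With a replicate block the 3 comparisons gave 3294, 1602 and 168 genes, and 9, 6 and 1 of the 10. Bambi is limited by depth, with 15 to 56 counts per library.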
